A study of Mus musculus with 6 samples.

Results

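The day 5 injured sciatic nerve was compared directly with the day 1 injured nerve to see which genes rose and fell between the early and the later phase of Wallerian degeneration, the breakdown and clearance of axons and myelin after a nerve is cut. Both samples came from adult female C57Bl6 mice whose left sciatic nerve had been transected at mid-thigh, and both held the segments on either side of the cut pooled together, so that the degenerating and the regenerating stump were not separated. Each was 1 Illumina MouseRef-8 array hybridised with 1 pool of total RNA from 6 animals, and the same series held a normal right sciatic nerve, normal and day 5 dorsal root ganglia (DRG) and a day 5 spinal cord, also 1 array of 6 animals each. The control nerve is labelled normal right nerve in the deposit and sham-operated in the study's text. The title of the day 5 nerve array ends with a day 1 code, while its source name gives day 5, which was followed. Probes with a gene symbol were included where detected (detection p under 0.05 against the negative controls of the array) on day 5 or on day 1. This gave 14243 of the 23978 probes with a symbol. Genes were counted by 1 probe each, the brightest by its mean over the 6 arrays. By that probe 10406 of 16593 genes were included, of which 8874 were detected in both arrays, 679 on day 5 only and 853 on day 1 only. Just inside that limit lay 222 genes whose lower detection p was from 0.04 to 0.05, and just outside it 240 genes from 0.05 to 0.06.

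When a peripheral axon is severed, its distal part disintegrates, and Schwann cells (SCs) along it shut down myelin synthesis, release chemokines and cytokines, divide and become repair cells that guide regrowing axons. Neutrophils are known to arrive first, followed by blood monocytes that become macrophages and, together with SCs, clear the lipid-rich myelin debris. Endoneurial fibroblasts and SCs then lay down new extracellular matrix. All of these cells contribute to RNA of a whole nerve, so fewer cells of a type and less RNA per cell cannot be told apart in these data.

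Array signals were scaled so that all 6 arrays shared 1 median, and a signal that was not detected was set to the floor of its array, the lowest detected signal (119 on day 5, 117 on day 1). A gene is said to have risen or fallen where its signals differed at least 2-fold and the higher of them was detected. A fold over a signal that was not detected is given as a bound (at least N-fold). As every condition had 1 array, no replicate spread and no p-value could be given, and the 95% intervals given with folds come from the spread of beads within the arrays, so they hold technical error only. The day 5 array detected 53.5% of probes and the day 1 array 54.5%, with a median of 39 beads per probe in each, and the Pearson correlation of their log2 signals across 16593 genes, which are not independent replicates, was 0.963. As for tissue identity, the myelin genes Pmp22 (20619 on day 5, 35130 on day 1) and Mbp (32171 on day 5, 51695 on day 1) and the SC marker S100b (290 on day 5, 418 on day 1) were detected in both arrays, while some other SC markers on the list were not analysed here.

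The day 1 array stood apart in 1 respect. Of all 16593 genes, whether or not detected in an injured nerve, 199 had a spinal cord signal at least 10-fold that of the normal nerve, and 120 of these were detected on day 5, against 199 on day 1. Their excess over the normal nerve, as a percentage of the excess in the spinal cord, had a median of -0.177% on day 5 (quartiles -0.928 to 0.572%) and of 4.42% on day 1 (quartiles 3.5 to 5.56%). Of these 199 genes 99 were lower on day 5 and 1 (Thy1) was higher, so that they made up 20.5% of all genes that fell but 1.91% of the genes detected. Some of these genes were also bright in the normal DRG (Cplx1 at 25799, against 26943 in the spinal cord), and others were less so (Slc32a1 at 1026, against 11208). RNA of either tissue in the day 1 pool was not tested as the source of this signal. Below, counts for lists that hold such genes are given with and without them, and also after subtraction of that 4.42% share of the spinal cord signal from the day 1 array, an alternative chosen after the data were seen. As the share was set from these same 199 genes, fewer falls among them after subtraction follow from its choice.

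**Figure D1:**
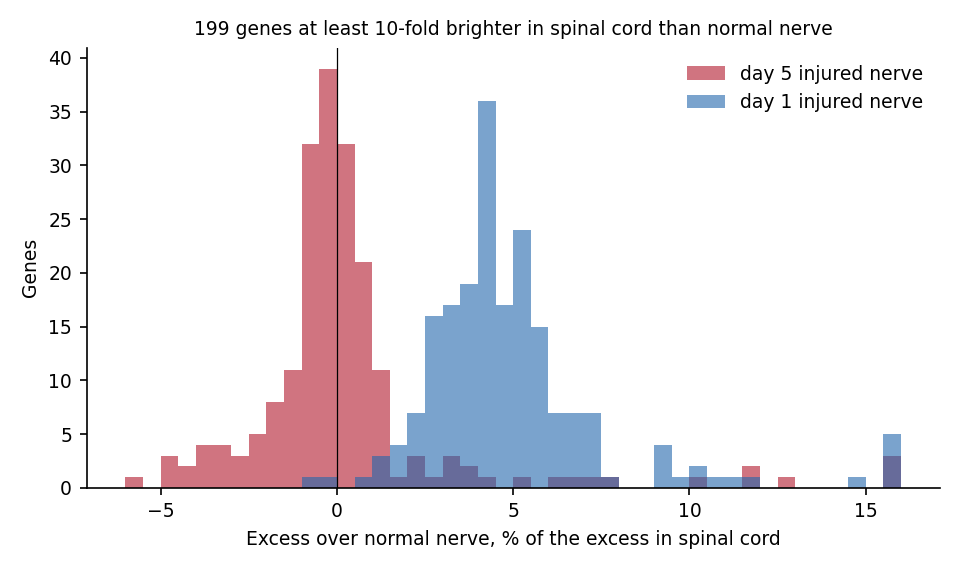
Histogram of 199 genes at least 10-fold brighter in spinal cord than in normal nerve. The horizontal axis gives the excess of the day 5 (red) and of the day 1 (blue) injured nerve over the normal nerve, in percent of the excess in the spinal cord, with values beyond the axis drawn in its end bins, and the vertical axis the number of genes. The day 5 genes centre on -0.177% and the day 1 genes on 4.42%.

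Of the 10406 genes, 338 rose to at least 2-fold higher on day 5 (3.25%) and 484 fell at least 2-fold (4.65%), while 9584 stayed within 2-fold. The fold was a lower bound in 20 of the genes that rose and in 46 of those that fell. At least 4-fold changes numbered 51 upward and 68 downward, and at least 8-fold changes 7 and 18. The median log2 difference over all genes was -0.02, and the 5th and 95th percentiles were -0.96 and 0.79. With the 199 spinal-cord-bright genes left out, 337 rose and 385 fell, and with their share subtracted from day 1, 378 rose and 368 fell. After neqc, a correction that subtracts background, 717 rose and 756 fell, and counts of list members after neqc are given below where they changed most. Just past the 2-fold limit lay Tbxas1 and H2az1 upward (2.002- and 2.003-fold) and Eprs and Il18 downward (2.002-fold each), and just short of it Arhgef19 upward (1.997-fold) and Hap1 downward (1.998-fold).

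**Figure D2:**
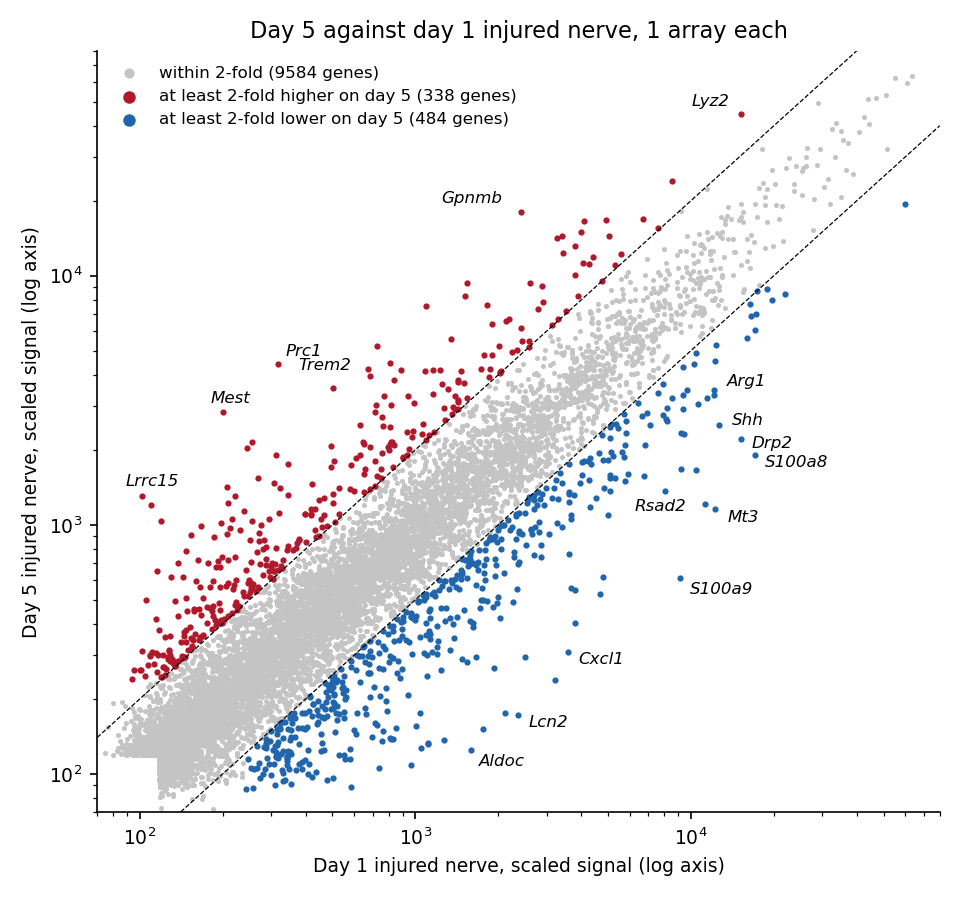
Scaled signal of each detected gene in the day 5 (vertical) and the day 1 injured nerve (horizontal), both on log axes, before undetected signals were set to the floor. Red marks the 338 genes at least 2-fold higher on day 5, blue the 484 at least 2-fold lower and grey the 9584 in between, and dashed lines show 2-fold differences.

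The level in the normal nerve showed where the day 5 and day 1 levels lay. Of the 338 genes that rose, 150 were at least 2-fold above the normal nerve on day 5 and within 2-fold of it on day 1, 25 were above it on both days, and 68 were within 2-fold of it on day 5 and at least 2-fold below it on day 1. A further 7, among them Mest, Mfap2, Mfap4, Pltp and Ptn, were at least 2-fold above the normal nerve on day 5 and at least 2-fold below it on day 1. Of the 484 genes that fell, 205 were within 2-fold of the normal nerve on day 5 and at least 2-fold above it on day 1, and 53 were above it on both days. Another 119 were at least 2-fold below on day 5 and within 2-fold on day 1, and 16 were below on both. These positions share the day 1 and day 5 signals with the folds and are a description.

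The largest rises among genes measured in both arrays belonged to different programs. Mest (an imprinted gene of growing mesodermal tissue) had a signal of 2847 on day 5, against 201 on day 1, with 458 in the normal nerve, a 14.2-fold rise (95% interval 12.1 to 16.6). Prc1 (a microtubule bundler of the dividing spindle) reached 4403 on day 5 against 316 on day 1, 13.9-fold (11.9 to 16.3). Next came Slc17a8 (a vesicular glutamate transporter), with 1031 on day 5, 119 on day 1 and no detection in the normal nerve, 8.63-fold. Its day 1 signal lay next to the floor of 117, so this fold is close to a lower bound. Pleiotrophin (Ptn) and midkine (Mdk), the members of a family of heparin-binding growth factors, rose 7.03-fold (3528 on day 5 against 502 on day 1) and 6.25-fold (4203 on day 5 against 673 on day 1). Pltp (a phospholipid transfer protein) rose 7.17-fold and Fcrls (an Fc receptor-like gene of myeloid cells) 6.1-fold. Among genes not detected on day 1, Lrrc15 (a membrane protein of activated fibroblasts) was at least 11.1-fold higher at 1299 on day 5, and C1qtnf3 (a secreted C1q/TNF-related protein) at least 10.3-fold higher at 1204. The bile acid receptor gene Nr1h4 and Tmem158 (a membrane protein gene) had smaller bounds of 3.23- and 2.65-fold.

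The largest falls were mostly of neutrophil, chemokine and interferon genes, described below, together with a group of genes bright in the spinal cord. Outside these groups, Mt3 (a metallothionein known from the nervous system) had 1153 on day 5, against 12265 on day 1, a 10.6-fold fall (9.32 to 12.1), and lay at 7700 in the normal nerve. Fam107a (an actin-associated stress gene) fell 9.37-fold, with 405 on day 5, 3800 on day 1 and 2491 in the normal nerve. The cystatin-related gene Cstdc4, whose cell source was not tested, had 132 on day 5 and 1108 on day 1, and was not detected in the normal nerve. Edn2 (endothelin-2, a vasoconstrictor peptide) was not detected on day 5 or in the normal nerve and was at 966 on day 1, at least 8.12-fold lower on day 5. The other 7 largest falls to an undetected level (Vstm2l, Tmem130, Napb, Slc32a1, Bex2, Cadps and Nap1l5) were all of genes with a spinal cord signal of 4378 or more, against 200 or less in the normal nerve, and Tmem130, Slc32a1 and Bex2 no longer passed 2-fold after subtraction of the spinal cord share. The normal DRG signal was above that of the spinal cord for Vstm2l (13351 against 11049), Bex2 (9134 against 8512) and Cadps (6153 against 5706). It was below it for Tmem130 (4902), Napb (2946), Nap1l5 (2280) and Slc32a1 (1026).

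**Figure D3:**
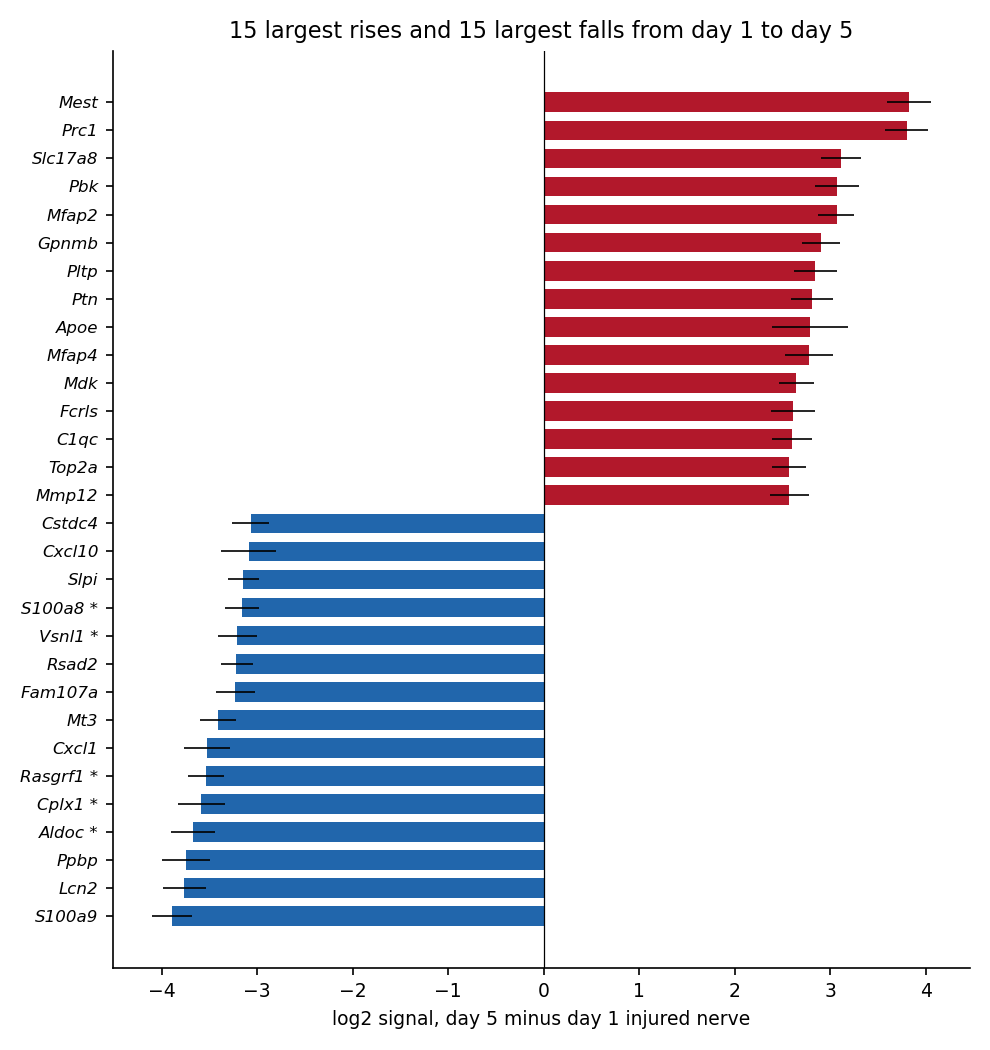
The 15 largest rises (red) and 15 largest falls (blue) among genes found in both injured nerve arrays. The horizontal axis is the log2 signal of day 5 minus day 1, lines are 95% bead intervals, and asterisks mark genes at least 10-fold brighter in spinal cord than in normal nerve. Mest and Prc1 lead upward and S100a9, Lcn2 and Ppbp downward.

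Neutrophil markers had the largest share of fallen members among the 46 gene lists: 14 of 17 detected markers fell, 0 rose, and the median log2 difference was -1.87. S100a9 and S100a8 (the subunits of calprotectin, the main calcium-binding protein of neutrophil cytosol) had 614 and 1908 on day 5, against 9093 and 17039 on day 1, falls of 14.8-fold (12.8 to 17.1) and 8.93-fold (7.89 to 10.1). In the normal nerve S100a9 was not detected and S100a8 was at 152, so on day 5 both were still at least 2-fold above normal. S100a8 was also 1 of the spinal-cord-bright genes, at 2175 there, and without it 13 of 16 markers fell, while after subtraction 14 of 17 did. Lcn2 (lipocalin-2, the iron-chelator carrier that binds MMP-9) had 173 on day 5, against 2367 on day 1, 13.7-fold lower and within 2-fold of its 306 in the normal nerve. Slpi (an inhibitor of neutrophil elastase) fell 8.89-fold to 527 on day 5, Hp (haptoglobin, a haemoglobin scavenger) 2.82-fold to 3318 on day 5, and the C-type lectin Clec4d 3.28-fold to 1547 on day 5. Il1r2, the decoy receptor for interleukin-1, had 155 on day 5 against 1004 on day 1. Retnlg (a resistin-like protein of neutrophils and some monocytes) had nearly the same signal in both arrays, 2203 on day 5 and 2202 on day 1, against 167 in the normal nerve. Summed over the 17 detected markers, the signal was 13128 on day 5, 61059 on day 1 and 4572 in the normal nerve.

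Of 28 detected chemokines, which attract leukocytes, 14 fell and 3 rose, with a median of -1.02. The neutrophil attractants led the falls. Ppbp (the CXCL7 precursor, also stored in platelets) had 239 on day 5, against 3218 on day 1, 13.5-fold lower (11.3 to 16.1), and Cxcl1 309 on day 5 against 3579 on day 1, 11.6-fold lower (9.8 to 13.7). Cxcl10, an interferon-induced attractant of T cells, fell 8.51-fold (294 on day 5 against 2506 on day 1). The monocyte attractants followed. Ccl4 had 1372 on day 5 and 8084 on day 1, Ccl7 1668 on day 5 against 9174 on day 1, Ccl2 491 on day 5 against 2269 on day 1, and Ccl3 412 on day 5 against 1578 on day 1, falls of 3.83- to 5.89-fold that left all of them at least 2-fold above the normal nerve. Ccl9, the brightest that fell, went down 2.47-fold and Cxcl14 2.74-fold (1822 on day 5 against 4996 on day 1). Against this trend Ccl8 (a monocyte and eosinophil attractant) rose 3.7-fold, with 3022 on day 5, 817 on day 1 and 236 in the normal nerve. Cxcl16 (a membrane-bound scavenger receptor and chemokine of macrophages) rose 3.03-fold to 1898 on day 5 against 627 on day 1. Ccl21a (a lymphoid CCR7 ligand) was 684 on day 5 and 300 on day 1, both below its 2385 in the normal nerve.

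Among 20 detected cytokines 10 fell and 1 rose, with a median of -0.98. Il1b, the inflammasome-processed alarm cytokine, had 619 on day 5, against 4796 on day 1, and was not detected in the normal nerve, a 7.75-fold fall (6.64 to 9.04). Its antagonist Il1rn fell 5.09-fold (290 on day 5 against 1473 on day 1). Osm and Clcf1, cytokines of the gp130 family, fell 3.04-fold (284 on day 5 against 862 on day 1) and 3.37-fold (204 on day 5 against 686 on day 1). Tgfb3, a transforming growth factor, was the exception, with 554 on day 5, 218 on day 1 and 491 in the normal nerve, 2.54-fold higher. Toll-like receptors, which sense microbial and damage signals, moved less. Of 13 detected receptors and adaptors only the co-receptor Cd14 passed 2-fold (after neqc 2 others rose), with 1318 on day 5 against 3768 on day 1. Tlr2 had 1559 on day 5 against 2465 on day 1 (log2 difference -0.66), Tlr13 1065 on day 5 against 1727 on day 1 (-0.70) and Tlr6 359 on day 5 against 542 on day 1 (-0.59). Tlr7 had 906 on day 5 against 669 on day 1 (0.44) and Tlr1 337 on day 5 against 300 on day 1 (0.17). All 5 were at least 2-fold above the normal nerve on both days. The same held for Il7r, the interleukin-7 receptor, with 630 on day 5 and 1116 on day 1, and for Cd44, a hyaluronan receptor, with 1784 on day 5 and 1903 on day 1.

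Interferon-stimulated genes, which make up the antiviral response, fell in 15 of 27 detected cases and rose in 0, with a median of -1.05, and 26 of the 27 had a log2 difference below 0. Rsad2 (viperin) had 1208 on day 5, against 11283 on day 1, with 683 in the normal nerve, 9.34-fold lower. Ifit3, an RNA-binding antiviral protein, had 3237 on day 5 against 11422 on day 1, and Oasl2, an oligoadenylate synthetase-like protein, 1887 on day 5 against 5194 on day 1. Each of these was back within 2-fold of the normal nerve on day 5. Such genes are switched on by factors that bind the interferon-stimulated response element (ISRE). The core GAAANNGAA, read on both strands, occurred in 15 of 27 RefSeq promoter windows (300 bases, 250 before and 50 after the transcript start, build GRCm38.p6) of the 21 detected list members that had a window, 55.6%, against 8.56% of all 32851 windows. It was present in 14 of these 21 members, 6 that fell and 8 that did not pass 2-fold. The promoters of the 2 brightest of these are shown because the motif sits close to the start of both, and in Ifit3 it occurs 3 times; they run 250 bases up to and 30 past the start, at chr19:34583279-34583558 on the plus strand and chr12:26456423-26456702 on the minus strand, written 5′ to 3′ with the motif in capitals on whichever strand it lies.
Ifit3: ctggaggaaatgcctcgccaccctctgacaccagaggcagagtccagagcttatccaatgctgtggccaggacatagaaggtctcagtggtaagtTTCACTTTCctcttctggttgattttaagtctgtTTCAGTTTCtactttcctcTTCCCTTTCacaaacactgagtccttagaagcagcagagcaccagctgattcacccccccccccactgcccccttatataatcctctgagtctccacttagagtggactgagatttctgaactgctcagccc
Rsad2: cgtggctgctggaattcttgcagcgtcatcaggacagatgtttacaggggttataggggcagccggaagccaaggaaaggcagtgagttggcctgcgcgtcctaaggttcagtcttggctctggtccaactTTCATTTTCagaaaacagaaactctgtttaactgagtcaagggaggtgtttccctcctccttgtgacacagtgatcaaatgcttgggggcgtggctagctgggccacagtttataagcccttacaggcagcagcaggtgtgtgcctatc
A match describes the letters and is not a measured binding site.

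Immediate early and AP-1 genes, transcription factors and feedback regulators that respond within minutes to injury signals, fell in 13 of 25 detected cases and rose in 1, with a median of -1.01. Egr1 had 3469 on day 5 against 9715 on day 1, and Fos 1864 on day 5 against 5709 on day 1, falls of 2.8- and 3.06-fold. Socs3, the inhibitor of gp130 signalling, fell 4.06-fold to 2318 on day 5, against 9421 on day 1. All 3 were still at least 2-fold above the normal nerve on day 5. Gadd45a, a stress and DNA damage response gene, went the other way, with 2980 on day 5, 1366 on day 1 and 493 in the normal nerve. Another Gadd45a probe, with 2475 on day 5 and 1370 on day 1, did not pass 2-fold (log2 difference 0.85). Jun, the AP-1 factor that drives the repair state of SCs, had 962 on day 5 and 511 on day 1, a log2 difference of 0.91 that did not pass 2-fold.

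Some stress and metabolic genes were also lower on day 5, where the share that fell over all genes was 4.65%. Of 16 NRF2 targets and metallothioneins 4 fell and 0 rose, with a median of -0.33. Mt1, a zinc-binding protein and the brightest of them, had 19376 on day 5, against 59703 on day 1 and 20413 in the normal nerve, 3.08-fold lower, and Mt2 was 141 on day 5 against 697 on day 1. Slc7a11, the cystine importer, fell 4.5-fold (208 on day 5 against 937 on day 1). Among 18 unfolded protein response genes, whose median was -0.52, 3 fell, Atf4 (949 on day 5 against 2207 on day 1), Asns (asparagine synthetase, 706 on day 5 against 2374 on day 1) and Chac1 (a glutathione-degrading enzyme, 172 on day 5 against 444 on day 1), all of the amino acid response arm, while no chaperone passed 2-fold. Glycolytic enzymes fell in 6 of 19 cases, with a median of -0.81. Ldha (lactate dehydrogenase) had 6907 on day 5 and 16468 on day 1, Pkm (pyruvate kinase) 3660 on day 5 against 7945 on day 1, and Pfkl (phosphofructokinase) 1117 on day 5 against 2371 on day 1. Aldoc and Eno2 are spinal-cord-bright, and without such genes 4 of 17 fell, or 5 of 19 after subtraction. Egln3, an oxygen-sensing hydroxylase induced by hypoxia, fell 3.61-fold (243 on day 5 against 876 on day 1), 1 of 3 that fell among 13 hypoxia-induced genes (5 after neqc). By contrast 0 of 34 oxidative phosphorylation subunits and 0 of 24 ribosomal protein genes passed 2-fold in either direction, with medians of -0.17 and 0.09, though 1 oxidative phosphorylation gene fell after neqc. The 9 reference genes had a median of -0.59, with 8 below 0, so that it lay below those of the NRF2 and unfolded protein response lists. Among them the lysosomal enzyme gene Gusb rose and the transferrin receptor Tfrc fell (731 on day 5 against 1940 on day 1), and Gapdh had 15323 on day 5 and 27690 on day 1.

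**Figure D4:**
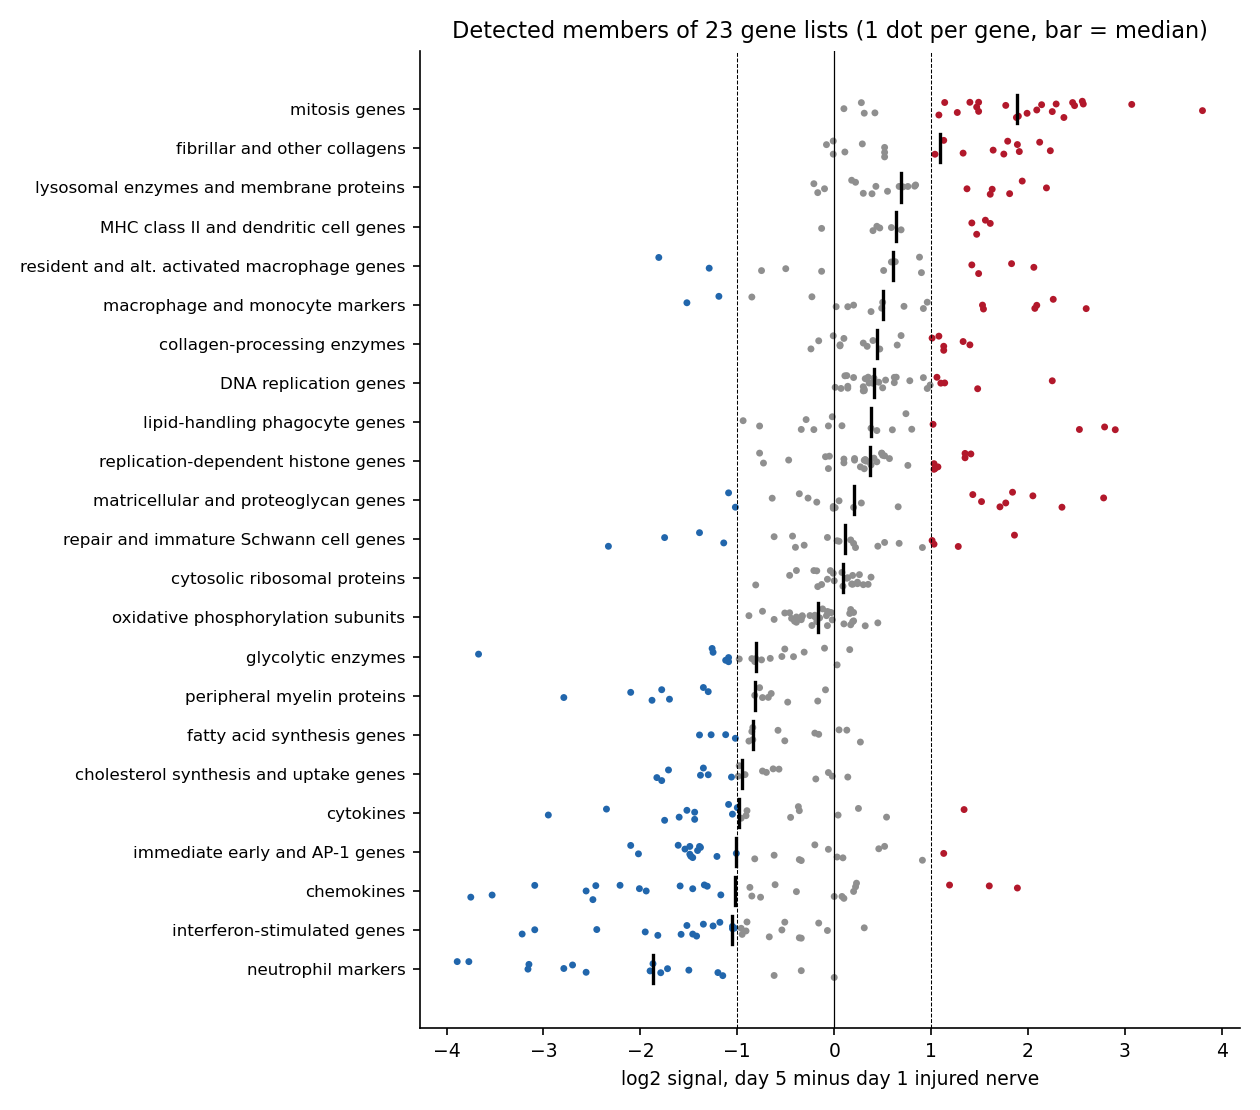
Log2 signal of day 5 minus day 1 (horizontal) for each detected member of 23 gene lists (rows, 1 dot per gene), with black bars at the list medians and dashed lines at 2-fold. Red dots passed 2-fold upward and blue dots downward, from mitosis genes (median 1.89) at the top to neutrophil markers (median -1.87) at the bottom.

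Mitosis genes rose the most as a group. Of 26 detected members 22 rose and 0 fell, with a median log2 difference of 1.89, against -0.02 over all genes. Besides Prc1, Pbk (a mitotic kinase) had 2143 on day 5, against 256 on day 1, 8.38-fold higher (7.14 to 9.84). Cenpa (the histone variant that marks centromeres) had 4452 on day 5 against 811 on day 1, Anln (an actin-binding scaffold of the cleavage furrow) 2509 on day 5 against 631 on day 1, and Top2a (a topoisomerase that untangles sister chromatids) 988 on day 5 against 166 on day 1. The kinase gene Plk1 was at 655 on day 5 and not detected on day 1, at least 5.59-fold higher, and the kinesin motor genes Kif2c, Kif18b and Kif11 had bounds of 4.26-, 3.57- and 2.64-fold. On day 1 most of this group was still at its normal level: the median difference of its members from the normal nerve was 1.94 on day 5 and 0.05 on day 1, and their summed signal was 26366 on day 5, 5735 on day 1 and 5392 in the normal nerve. The 4 members that did not pass 2-fold (Bub1b, Melk, Spc24 and Pttg1) had signals of 230 or less in both arrays.

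Many genes of mitosis are kept silent outside the cycle through a cell cycle homology region (CHR). Its core TTTGAA, on both strands, was found in 17 of the 22 promoter windows of the 21 members with a window, 77.3%, against 17.9% of all windows, and it was held by 15 genes that rose and by Bub1b, which did not pass 2-fold. The 2 brightest are shown because the element lies near the transcript start in both, at chr5:30666636-30666915 and chr7:80294201-80294480, both on the plus strand, with the motif in capitals.
Cenpa: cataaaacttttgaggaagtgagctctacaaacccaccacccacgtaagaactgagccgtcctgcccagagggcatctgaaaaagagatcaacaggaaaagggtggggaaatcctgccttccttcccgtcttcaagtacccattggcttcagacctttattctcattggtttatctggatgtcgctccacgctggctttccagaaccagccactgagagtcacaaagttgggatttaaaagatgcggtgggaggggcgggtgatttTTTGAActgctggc
Prc1: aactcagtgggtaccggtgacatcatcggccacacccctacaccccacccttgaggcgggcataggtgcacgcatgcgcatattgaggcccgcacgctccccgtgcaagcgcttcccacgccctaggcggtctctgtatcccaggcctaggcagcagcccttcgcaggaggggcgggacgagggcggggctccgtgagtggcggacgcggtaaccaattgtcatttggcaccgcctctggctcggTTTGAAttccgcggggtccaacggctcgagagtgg

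DNA replication genes, which act earlier in the cycle, changed less: 5 of 32 rose (10 after neqc), 0 fell, and the median was 0.41, although 32 of 32 had a log2 difference above 0. Tk1 (thymidine kinase) rose 4.76-fold (1134 on day 5 against 238 on day 1), Uhrf1 (which couples DNA methylation to replication) 2.21-fold (2325 on day 5 against 1054 on day 1), E2f1 2.79-fold (1107 on day 5 against 397 on day 1) and Lig1 (DNA ligase) 2.08-fold (990 on day 5 against 476 on day 1). Other Tk1 and Lig1 probes, at 165 or less in both arrays, did not pass 2-fold. Uhrf1 was already above its 276 of the normal nerve on day 1, and the list as a whole had medians of 0.86 on day 5 and 0.40 on day 1 against the normal nerve. The E2F core TTTNNCGC was in 11 of 32 windows of the 27 members with one (34.4%, against 5.17% of all windows), and was held by Uhrf1 and Lig1 among the genes that rose and by 8 members that did not pass 2-fold. The promoter of Uhrf1, the brighter, lies at chr17:56303087-56303366 on the plus strand. That of Lig1 is not printed, as its match runs past the 30 bases after the start that are shown.
Uhrf1: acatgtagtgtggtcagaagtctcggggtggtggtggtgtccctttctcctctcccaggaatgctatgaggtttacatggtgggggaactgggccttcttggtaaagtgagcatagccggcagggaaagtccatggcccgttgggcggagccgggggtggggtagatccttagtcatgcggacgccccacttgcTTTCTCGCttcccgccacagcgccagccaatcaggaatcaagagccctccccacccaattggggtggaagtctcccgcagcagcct
Replication-dependent histone genes, which are transcribed in S phase, rose in 7 of 33 cases and fell in 0, with a median of 0.37, and all 7 encode H2A. H2ac24 had 6719 on day 5 against 3301 on day 1, and H2ac10 1933 on day 5 against 759 on day 1. These genes are near-identical copies, so their probes may not tell them apart, and without scaling 4 passed 2-fold.

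Of 19 detected macrophage and monocyte markers 6 rose and 2 fell, with a median of 0.50. Lyz2 (lysozyme) had 44452 on day 5, against 15252 on day 1 and 5678 in the normal nerve, 2.91-fold higher (2.45 to 3.46). Adgre1 (an adhesion receptor that marks mouse macrophages) rose 2.89-fold (3352 on day 5 against 1161 on day 1). The C1q chains, which start the classical complement pathway, rose together, C1qb to 14466 on day 5 against 3403 on day 1, C1qc to 9356 on day 5 against 1542 on day 1 and C1qa to 1477 on day 5 against 308 on day 1, folds of 4.25 to 6.07. Falling were Cd14, above, and the high-affinity IgG receptor Fcgr1 (517 on day 5 against 1177 on day 1). Lgals3, a galectin of activated macrophages, and Fcer1g, an Fc receptor adaptor, were bright on both days without passing 2-fold, with 29551 on day 5 against 22690 on day 1 for Lgals3 and 14191 on day 5 against 12914 on day 1 for Fcer1g. Of the other complement genes C1s1 rose (296 on day 5 against 142 on day 1) and the inhibitor Cd59a fell (5270 on day 5 against 12302 on day 1). C1s1 did not pass 2-fold in the deposited quantile-normalized values, nor did another C1s1 probe (261 on day 5 against 144 on day 1).

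Lipid handling by phagocytes is needed to process myelin debris. Of 17 such genes 4 rose and 0 fell, with a median of 0.38. Gpnmb (a glycoprotein of lipid-laden macrophages) had 18064 on day 5, against 2415 on day 1 and 1025 in the normal nerve, 7.48-fold higher (6.54 to 8.56). Trem2 (a lipid-sensing receptor) had 3951 on day 5 against 682 on day 1, with 203 in the normal nerve, and Apoe (the apolipoprotein that carries salvaged cholesterol) 7575 on day 5 against 1097 on day 1, with 1693 in the normal nerve. Fabp5 (a fatty acid carrier) rose 2.03-fold, but did not pass 2-fold without scaling. Lysosomal genes rose in 6 of 20 cases and fell in 0, with a median of 0.69. Ctsk (cathepsin K) rose 4.55-fold (3799 on day 5 against 835 on day 1), Hexa (a hexosaminidase) 3.84-fold (4157 on day 5 against 1084 on day 1), Gusb (beta-glucuronidase) 3.51-fold (3293 on day 5 against 937 on day 1), Man2b1 (a mannosidase) 3.09-fold (6567 on day 5 against 2125 on day 1) and Ctsh (cathepsin H) 2.59-fold. Their median against the normal nerve was 1.07 on day 5 and 0.18 on day 1.

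The resident and alternatively activated macrophage list moved both ways, 4 of 14 up and 2 down. Arg1 (arginase I, of polyamine synthesis) and Chil3 (a chitinase-like lectin) fell, with 3466 on day 5 against 12131 on day 1 for Arg1 and 1286 on day 5 against 3144 on day 1 for Chil3, both far above the normal nerve, where Arg1 was at 131 and Chil3 was not detected. Another Chil3 probe, with 388 on day 5 and 605 on day 1, did not pass 2-fold. Stab1 (a scavenger receptor) rose to 1809 on day 5 against 508 on day 1, Folr2 (a folate receptor of resident macrophages) to 1159 on day 5 against 432 on day 1, and the lectin Clec10a to 709 on day 5 against 253 on day 1. Retnla, a resistin-like marker of alternative activation, was 4.18-fold higher on day 5 (2062 on day 5 against 493 on day 1) and yet below its 7100 in the normal nerve. MHC class II genes, which present antigen, rose as a set: H2-Ab1 had 11248 on day 5 against 4049 on day 1, H2-Eb1 6681 on day 5 against 2183 on day 1, H2-Aa 3675 on day 5 against 1247 on day 1 and the invariant chain Cd74 11848 on day 5 against 4425 on day 1, folds of 2.68 to 3.06. These 4 were the only ones to pass among 10 genes of the class II and dendritic cell list, whose median was 0.64. After neqc 6 of the 10 rose, with a median of 1.08. None of 9 detected lymphocyte and NK cell markers and none of 6 mast cell markers passed 2-fold, whereas after neqc 4 of the 9 and 2 of the 6 rose.

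Collagen genes rose in 10 of 18 cases and fell in 0, with a median of 1.09. Col1a1, the main fibrillar chain, had 14199 on day 5, against 3267 on day 1 and 7673 in the normal nerve, 4.35-fold higher (3.7 to 5.1). Col6a1 had 14988 on day 5 against 3991 on day 1, Col5a1 13125 on day 5 against 3807 on day 1, and Col18a1 (a basement membrane collagen) 12179 on day 5 against 5574 on day 1. The day 5 level of Col1a1 and Col6a1 was within 2-fold of normal and the day 1 level at least 2-fold below it, and over the list the median difference from the normal nerve was 0.47 on day 5 and -0.55 on day 1. Enzymes that process collagen rose in 6 of 18 cases and fell in 0. Loxl1 (a lysyl oxidase-like crosslinker) had 7337 on day 5 against 2782 on day 1, Bmp1 (procollagen C-proteinase) 4074 on day 5 against 2020 on day 1, its enhancer Pcolce 3110 on day 5 against 1423 on day 1 and Plod2 (a lysyl hydroxylase) 789 on day 5 against 360 on day 1, though Bmp1 did not pass 2-fold without scaling. Of 15 basement membrane genes only Nid1 (nidogen) passed 2-fold, with 3183 on day 5 and 1425 on day 1, while after neqc 5 rose. Over all genes 3.25% rose.

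Other matrix genes were mixed, 8 up and 2 down of 21, with a median of 0.20. Bgn (biglycan) had 16702 on day 5 against 4913 on day 1, Lum (lumican) 14458 on day 5 against 5030 on day 1, and Thbs2 (an antiangiogenic thrombospondin) 9339 on day 5 against 2605 on day 1. Tnc (tenascin C) had 7809 on day 5 against 2899 on day 1 and only 200 in the normal nerve, so it stood far above normal on both days. Other detected Tnc probes, all dim at 256 or less, did not pass 2-fold (log2 differences 0.83, 0.39 and 0.31). Mfap4 and Mfap2 (microfibril proteins) rose 6.86- and 8.37-fold. The 2 that fell were Ogn (osteoglycin, 7701 on day 5 against 16372 on day 1) and Thbs1 (245 on day 5 against 497 on day 1), and neither passed 2-fold in the deposited quantile-normalized values, nor did Ogn after neqc. Among matrix metalloproteinases and TIMPs 3 rose and 3 fell of 16. Mmp12 (macrophage elastase) had 911 on day 5 and 153 on day 1, 5.94-fold higher, Mmp2 (gelatinase A) 10998 on day 5 against 5296 on day 1, and Mmp23 867 on day 5 against 252 on day 1. Mmp9 (gelatinase B) fell 2.3-fold (1.91 to 2.78), with 605 on day 5, 1393 on day 1 and 247 in the normal nerve. Its inhibitor Timp1 fell 2.45-fold (2.16 to 2.79), with 7025 on day 5, 17236 on day 1 and 381 in the normal nerve, and Mmp3 (stromelysin) fell to 878 on day 5 against 1913 on day 1. Mmp3 also had detected probes that did not pass 2-fold, with log2 differences of -0.56 and -0.87. Of 15 ADAM and ADAMTS proteases only the aggrecanase Adamts5 passed 2-fold (344 on day 5 against 875 on day 1), while after neqc 3 others rose. Over all genes 4.65% fell.

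Fibroblast and perineurial markers rose in 6 of 21 cases and fell in 2. Angptl7 (2115 on day 5 against 652 on day 1), the dermatopontin gene Dpt (1704 on day 5 against 496 on day 1), the transcription factor gene Osr2 (2479 on day 5 against 809 on day 1) and Pi16 (1847 on day 5 against 899 on day 1) rose, and all 4 were below the normal nerve by at least 2-fold on day 1, though Pi16 did not pass 2-fold without scaling. Gsn (gelsolin) and Slc2a1 (the glucose transporter of perineurial and barrier cells) fell, the last not after neqc, where 9 rose and 1 fell. Mural cell genes Myh11, Rgs5 and Notch3 rose 2.08-, 2.21- and 2.41-fold, 3 of 12 with 0 falling (7 rose after neqc). Of 19 endothelial markers Plvap, a protein of fenestrated and leaky vessels, rose (2388 on day 5 against 984 on day 1) and Mfsd2a, a lipid transporter of tight barrier endothelium, fell (409 on day 5 against 1276 on day 1, with 2514 in the normal nerve). With 1 of 19 each way, this was near the shares over all genes (3.25% rose, 4.65% fell) and is no result about vessels. The other 17 stayed within 2-fold, among them Pecam1 (1313 on day 5 against 1069 on day 1), but 3 rose in the quantile-normalized values and 5 after neqc.

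Myelin genes were lower on day 5. Of 15 detected peripheral myelin genes 7 fell and 0 rose, all 15 had a log2 difference below 0, and the median was -0.82. Drp2 (a dystrophin-related protein that anchors the periaxin complex) had 2205 on day 5, against 15198 on day 1 and 10273 in the normal nerve, 6.89-fold lower (5.84 to 8.13). Egr2 (Krox20, the master regulator of myelination) had 1566 on day 5 against 6736 on day 1, with 4496 in the normal nerve, 4.3-fold lower (3.62 to 5.1). Gldn (gliomedin, which clusters sodium channels at nodes) had 3310 on day 5 against 12154 on day 1, and Mag (myelin-associated glycoprotein) 2096 on day 5 against 6803 on day 1. For these 4 genes the day 1 level was above the normal nerve or within 2-fold of it. Over the list the median difference from the normal nerve was -1.27 on day 5 and -0.32 on day 1.

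Some genes of myelin lipid synthesis were lower on day 5. Ugt8a and Fa2h, which make galactocerebroside and its hydroxylated form, were the 2 that fell among 17 galactolipid and sphingolipid genes. The median of that list was -0.22, and over all genes 4.65% fell. Fa2h had 2620 on day 5, against 8196 on day 1 and 18077 in the normal nerve, and Ugt8a had 2752 on day 5, against 7941 on day 1 and 18820 in the normal nerve. Cholesterol synthesis genes fell in 7 of 18 cases (12 after neqc) and rose in 0, with a median of -0.95. Hmgcs1 (the synthase before the rate-limiting step) had 8430 on day 5, against 21961 on day 1 and 50330 in the normal nerve, Msmo1 (a sterol oxidase) 830 on day 5 against 2855 on day 1, Fdps (farnesyl diphosphate synthase) 931 on day 5 against 2378 on day 1 and Hsd17b7 (a ketosteroid reductase) 759 on day 5 against 2696 on day 1. The list was already lower on day 1, with a median difference from the normal nerve of -1.65 on day 5 and -0.96 on day 1. Of 15 fatty acid synthesis genes 4 fell and 0 rose, among them Elovl6 (551 on day 5 against 1442 on day 1, with 4315 in the normal nerve), Me1, Fads3 and Scd2, but Me1 did not pass 2-fold in the quantile-normalized values or after subtraction, where 3 fell in each case. Sterol genes are switched on by SREBP2 through the sterol regulatory element (SRE). The core TCACNCCAC, on both strands, was found in 1 of 18 windows of the 15 members with one (5.56%, against 1.24% of all windows). It was in Hmgcs1, whose promoter at chr13:119690101-119690380 on the plus strand is shown as the only list member with a match.
Hmgcs1: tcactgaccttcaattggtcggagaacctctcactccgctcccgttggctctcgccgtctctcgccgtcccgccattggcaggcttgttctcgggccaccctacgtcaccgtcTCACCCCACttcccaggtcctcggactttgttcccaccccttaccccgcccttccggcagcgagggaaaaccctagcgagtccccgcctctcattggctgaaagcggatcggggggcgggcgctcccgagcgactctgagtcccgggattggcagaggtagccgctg

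**Figure D5:**
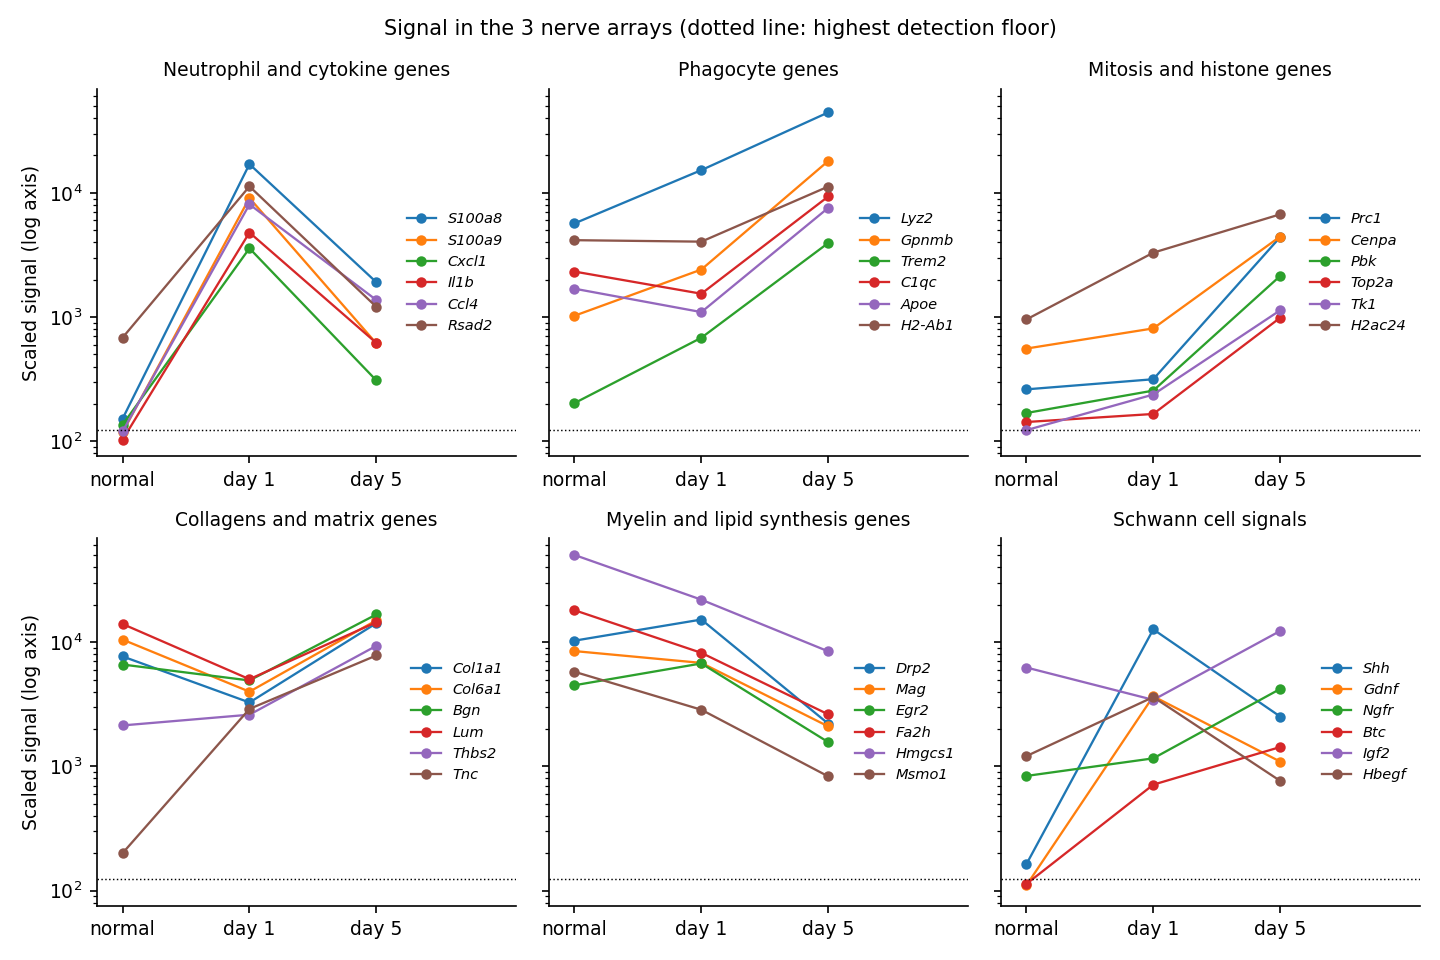
Scaled signal (vertical, log axis) of 36 genes in the normal, day 1 injured and day 5 injured nerve (horizontal), 1 array each, in 6 panels by gene group, with 1 line per gene and a dotted line at the highest detection floor (124). Neutrophil and cytokine genes peak on day 1, phagocyte and mitosis genes are highest on day 5, and lipid synthesis genes are lower on each later day.

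Genes of the repair SC split, 4 up and 4 down of 22 detected, with a median of 0.11. The shares over all genes were 3.25% up and 4.65% down. Ngfr, the p75 neurotrophin receptor, had 4198 on day 5, against 1160 on day 1 and 837 in the normal nerve, 3.62-fold higher (3.16 to 4.15). Btc (betacellulin, an EGF family ligand) had 1430 on day 5 against 712 on day 1 and was not detected in the normal nerve, and Igfbp3 (1221 on day 5 against 504 on day 1) and Mcam (2293 on day 5 against 1120 on day 1) also rose, though Btc and Mcam did not pass 2-fold without scaling. Other Mcam probes (787 on day 5 against 430 on day 1, and 629 on day 5 against 315 on day 1) did not pass either. Falling were Shh (sonic hedgehog), with 2517 on day 5, 12669 on day 1 and 163 in the normal nerve, 5.03-fold lower (4.36 to 5.82), and Gdnf (a survival factor for motor neurons), with 1092 on day 5, 3665 on day 1 and no detection in the normal nerve. Nes (nestin) fell to 3236 on day 5 against 8505 on day 1. Olig1 was 409 on day 5 and 901 on day 1, but it is spinal-cord-bright (12080), and after subtraction its log2 difference was 0.13. Without spinal-cord-bright genes 4 rose and 3 fell of 19, and after subtraction 4 rose and 3 fell of 21. Of the SC identity genes Cdh19 (a cadherin of glial precursors) rose to 704 on day 5 against 302 on day 1, and Gpr37l1 (a G protein-coupled receptor of glia) and Sema3b fell, to 514 on day 5 against 2000 on day 1 and 877 on day 5 against 2044 on day 1.

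Growth factor ligands showed 3 up and 4 down of 19, with a median of 0.02. Over all genes 3.25% rose and 4.65% fell. Igf2 and Igf1, the insulin-like growth factors, had 12302 and 2148 on day 5, against 3429 and 644 on day 1, 3.59- and 3.33-fold higher and within 2-fold of the normal nerve on both days. Hbegf (heparin-binding EGF) fell 4.73-fold (764 on day 5 against 3613 on day 1). Pdgfa (2544 on day 5 against 5186 on day 1) and Fgf1 (1258 on day 5 against 2559 on day 1, with 5806 in the normal nerve) lay close to the limit, and neither passed 2-fold in the quantile-normalized values, after neqc or after the spinal cord share was subtracted.

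Axonal and central nervous system genes carried the day 1 signal described above. The subtracted share was set from spinal-cord-bright genes, which made up 12 of the 21 neuronal genes and most of the spinal cord list. Fewer falls after subtraction or without such genes were therefore fixed in advance, and the source of the signal was not tested. Of 21 neuronal genes 12 fell and 1 rose, and without spinal-cord-bright genes 2 of 9 fell, or 5 of 16 after subtraction. Cplx1 and Vsnl1, synaptic and calcium-sensor genes, had 176 and 137 on day 5, against 2119 and 1273 on day 1. Their signals were 26943 and 21079 in the spinal cord and 25799 and 4718 in the normal DRG. Thy1, a surface glycoprotein of neurons that fibroblasts also carry, was the 1 that rose, 5.48-fold (8276 on day 5 against 1510 on day 1). Sncg (gamma-synuclein), which was not spinal-cord-bright, fell 2.46-fold, with 2821 on day 5, 6944 on day 1 and 10856 in the normal nerve, and Syp (synaptophysin) 3.41-fold, though not after subtraction. Of 19 spinal cord neuron and glia genes 12 fell, 2 of 13 after subtraction and 0 of 2 without spinal-cord-bright genes, which made up 17 of the 19, with summed signals of 10811 on day 5, 21890 on day 1, 11351 in the normal nerve and 175702 in the spinal cord. Aldoc (aldolase C of astrocytes) had 125 on day 5, 1586 on day 1 and 23686 in the spinal cord, Rasgrf1 151 on day 5, 1757 on day 1 and 27980 in the spinal cord, and Slc17a6 (a vesicular glutamate transporter) 138 on day 5, 832 on day 1 and 12550 in the spinal cord. In the normal DRG the signals of Aldoc, Rasgrf1 and Slc17a6 were 5057, 3782 and 11399. The difference of Atp1b1 (315 on day 5, 1336 on day 1) turned upward to 0.51 after subtraction. Of 7 sensory neuron genes 1 fell, 0 of 6 without spinal-cord-bright genes and 1 of 6 after subtraction.

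Markers of cell types from outside the nerve were counted too, beside shares over all genes of 3.25% that rose and 4.65% that fell. Of 19 skeletal muscle markers Mylpf rose (674 on day 5 against 196 on day 1) and Tnnc1 and Pvalb fell (Pvalb not after subtraction), 14 had a log2 difference above 0, the median was 0.52, and after neqc 5 rose and 2 fell. Their summed signal was 18173 on day 5, 13301 on day 1 and 18127 in the normal nerve. Of 10 adipocyte markers Plin4 and Dgat2 fell and 9 had a log2 difference below 0 (median -0.21), with sums of 7687 on day 5 and 9467 on day 1, against 33126 in the normal nerve. Of 5 erythroid genes 0 passed 2-fold, and their sums, set mainly by Hba-a1, were 62908 on day 5 and 65719 on day 1. The part of these cell types in the other results was not tested.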

How the data were processed

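Total RNA pools were hybridised to MouseRef-8 v2.0 arrays. The authors deposited intensity values without scaling or background subtraction (mean bead signal), with bead standard errors, bead numbers and a detection p-value per probe, and a processed table of intensity values whose 6 columns share the same quantiles. The study's methods name median normalization, and the submitters' processing notes name Agilent Feature Extraction 10.5. Of 25697 probes, 1719 had no symbol and were left out. Signals were scaled to a common median (factors 0.951 to 1.07 over the 6 arrays). Where a gene had several probes (4777 genes), the brightest by its mean over the 6 arrays stood for it. Signals include background, which makes the folds of dim genes too small.

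The genes, the 46 gene lists and the rules were chosen with earlier results of these data known. Named genes were the 15 largest folds each way in genes detected in both arrays, the 8 largest bounds each way, the 4 brightest members of each list that passed 2-fold in each direction with its exceptions, and genes that the study names; Pmp22, Mbp, S100b, Retnlg, Lgals3, Fcer1g, Jun, Gapdh, Hba-a1, Pecam1, Bub1b, Melk, Spc24, Pttg1 and those at the limits were added after their values were seen. List names were matched by symbol and older symbols. Promoter windows are RefSeq's. Alternatives were no scaling, the deposited quantile-normalized values, neqc background correction (offset 16), a detection p under 0.01, no floor, other fold limits, another probe rule, and leaving out or subtracting spinal cord signal. Calculations used Python 3.11.15, pandas 2.3.3, numpy 2.4.6, matplotlib 3.10.9, R 4.3.3 and limma 3.58.1 (neqc). The calls were also run on simulated arrays, with folds planted in bright genes and bead error only. That checks the calculation and not variation between pools, dim genes or the floor.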

Additional observations from a re-analysis of the deposited data

How the results depend on the processing

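With 1 array per condition, no replicate could be left out, and no paired analysis was possible because no group has more than 1 sample. The counts of genes that rose and fell, 338 and 484, became 717 and 756 after neqc background correction, 876 and 1217 at a 1.5-fold limit, 104 and 158 at 3-fold, and 204 and 317 where the whole bead interval had to lie beyond 2-fold. Without scaling they were 292 and 535, in the quantile-normalized values 389 and 435, and at a detection p under 0.01 they were 329 and 479, all within 1.5 times of 338 and 484. Every gene that rose also did so after neqc, and 466 of the 484 that fell. Without scaling, the medians of growth factor ligands (-0.03) and of ADAM and ADAMTS proteases (-0.04) turned below 0. With the spinal cord share subtracted from day 1, the log2 differences of Atp1b1 (0.51) and Olig1 (0.13) turned upward, and 10 of 189 named genes no longer passed 2-fold. Without scaling, and in the quantile-normalized values, 7 did not, and after neqc 5. Of 45 named genes with several detected probes, 24 had a probe that was not called the same way, mostly at dim signals, and no gene had probes called in opposite directions. Brighter probes that did not pass 2-fold were among those of Gadd45a, Bmp1, Mmp3, Mcam, Chil3, Me1, Nes and Ogn. Intervals hold bead error only, and variation between animals was not measured.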

Other observations

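Some further groups were put together after values were seen, and their counts are descriptions of genes partly chosen for their change. Among 12 detected imprinted growth genes 5 rose and 0 fell, with a median log2 difference of 0.83. Besides Mest and Igf2 these were Dlk1 (1545 on day 5, 268 on day 1), a Notch-like inhibitor of fat cell formation, Grb10 (4194 on day 5, 1225 on day 1), an adaptor that restrains insulin signalling, and Igf2r (1252 on day 5, 448 on day 1), which clears IGF2. The median of the group against the normal nerve was -0.02 on day 5 and -0.83 on day 1. Among 14 elastic fiber and microfibril genes 6 rose and 0 fell, with a median of 0.69, including elastin (Eln, 1751 on day 5, 344 on day 1) and Fbln1 (2485 on day 5, 761 on day 1).

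Secreted Wnt antagonists moved both ways. Sfrp2 rose 5.34-fold (784 on day 5, 147 on day 1, 767 in the normal nerve) and Wif1 2.68-fold (469 on day 5, 175 on day 1), while Sostdc1 fell 3.55-fold (1275 on day 5, 4524 on day 1). Of 17 integrin subunits the collagen-binding Itga11 rose (539 on day 5, 250 on day 1) and the platelet subunit Itga2b fell (177 on day 5, 550 on day 1). Of 14 circadian clock genes only the repressor Nfil3 passed 2-fold, with 742 on day 5 and 2280 on day 1. Over all genes 3.25% rose and 4.65% fell, so single calls in groups of this size say little about the group.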
